A study of Mus musculus with 2 samples.

Results

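Eph receptors and ephrins were compared between primary and self-renewing macrophages of mouse bone marrow. The 10 genes examined were the 5 receptors Epha2, Epha4, Ephb2, Ephb4 and Ephb6 and the 5 ephrins Efna1, Efna4, Efna5, Efnb1 and Efnb2, out of 22910 genes that could be named on the array. They were taken as the genes named by the transcript accession of 15 gene probes, each present as 1 spot on each array. No filter on detection or level was applied to these probes. The 10 genes themselves were chosen with the large signal of Epha2 in the self-renewing macrophages known from earlier results.

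RNA was hybridised to SurePrint G3 mouse expression arrays (8x60K v2) with 1 dye, Cy3, with 1 array for each cell type. Primary macrophages were adherent cells of C57BL/6 bone marrow after 5 days of culture, and self-renewing macrophages were the proliferating cells that C57BL/6 bone marrow gave after passage 4. Both cultures received 100 ng/ml recombinant human M-CSF, the growth factor that macrophages depend on, and both are labelled as bone marrow of male mice with no genetic change named. Self-renewing macrophages were kept as bulk cells rather than clones unless the study stated otherwise, so the array may read a mixture of colonies.

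Eph receptors are the largest family of receptor tyrosine kinases, and their ligands, the ephrins, are themselves held in the membrane of a neighbouring cell. Contact between cells therefore sends a forward signal into the cell that carries the receptor and a reverse signal into the cell that carries the ephrin. Ephrin-A proteins are anchored by a lipid and mostly bind EphA receptors, ephrin-B proteins span the membrane and mostly bind EphB receptors, and the system is best known for repulsion, boundary formation and vessel growth. In macrophages and monocytes, Eph receptors and ephrins are known mainly for adhesion and for contacts with endothelium and with bone-forming cells.

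The self-renewing macrophages had a clear Epha2 signal, at least 105-fold above that of the primary macrophages, where the gene was not detected. Efna1, which encodes a ligand of EphA2, was likewise detected on the self-renewing array alone, with a signal at least 7.95-fold above that of the other. These bounds belong to the main processing. With another background correction (normexp) the differences were smaller, 4.20 log2 for Epha2 and 1.10 for Efna1. By a looser detection flag both genes were detected on both arrays. The brighter Ephb6 probe was 2.02-fold higher on the self-renewing array, while the dimmer one had a small difference the other way. Ephb2, Efna4 and Efnb1 were measured on both arrays and differed by less than 2-fold. Efnb2 was detected on the primary array alone, and Epha4, Ephb4 and Efna5 were on neither array.

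The promoters of Epha2 and Efna1 are shown because these were the genes among the 10 that were detected on the self-renewing array alone. The sequences are the 250 bases before a transcription start in RefSeq on the GRCm38.p6 assembly, written 5′ to 3′ on the strand of the gene, and the array itself was designed on an earlier assembly. Capitals mark matches to 7 short motifs of transcription factor families, searched on both strands. The Epha2 window lies at chr4:141300971-141301220 on the plus strand, and the Efna1 windows, for 2 annotated starts, lie at chr3:89280952-89281201 and chr3:89279646-89279895 on the minus strand.
Epha2: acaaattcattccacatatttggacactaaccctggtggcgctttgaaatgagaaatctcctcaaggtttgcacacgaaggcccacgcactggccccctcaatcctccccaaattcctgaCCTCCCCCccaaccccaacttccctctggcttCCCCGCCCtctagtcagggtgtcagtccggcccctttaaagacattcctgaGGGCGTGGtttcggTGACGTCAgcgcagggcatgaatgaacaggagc
Efna1, first start: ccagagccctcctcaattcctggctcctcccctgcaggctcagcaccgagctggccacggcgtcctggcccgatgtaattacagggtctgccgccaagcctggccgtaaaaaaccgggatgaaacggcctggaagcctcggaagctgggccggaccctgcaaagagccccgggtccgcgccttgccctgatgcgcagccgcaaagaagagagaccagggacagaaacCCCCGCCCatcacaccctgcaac
Efna1, second start: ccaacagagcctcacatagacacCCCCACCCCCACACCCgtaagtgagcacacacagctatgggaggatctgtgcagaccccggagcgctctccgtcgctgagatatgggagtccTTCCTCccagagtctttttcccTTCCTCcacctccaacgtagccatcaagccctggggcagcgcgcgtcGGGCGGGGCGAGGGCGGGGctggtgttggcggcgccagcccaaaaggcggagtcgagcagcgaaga

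The motifs were an AP-1 site (TGANTCA), a cyclic AMP response element (TGACGTCA), an E-box (CACGTG), a Maf half-site (TGCTGAC), a PU.1 core (GAGGAA), a KLF box (CCNCNCCC) and a TATA box (TATAAA). The Epha2 window held 1 cyclic AMP response element, 33 to 26 bases before the start, and 3 KLF boxes. A cyclic AMP response element was found in 1.55% of all 32851 windows of the same length and in 1 of the 11 windows of the 10 genes. The first Efna1 window held 1 KLF box, and the second held 6 KLF boxes, some of which overlap, and 2 PU.1 cores. KLF boxes lay in all 11 windows and in 45.9% of all windows, where the GC content of the 11 windows ran from 54.4% to 76.8% beside a median of 52.4% over all windows. Neither an AP-1 site, found in 6.75% of all windows, nor an E-box, found in 6.02%, lay in any of the 11 windows. A Maf half-site, found in 3.81% of all windows, lay in the Efnb1 window, a PU.1 core, found in 23.3%, in the second Efna1 window, and a TATA box, found in 12.4%, in the Efnb2 window. No motif searched was shared by the Epha2 and Efna1 windows other than the KLF box. A match of letters is a description of the sequence and does not show binding.

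Levels are log2 of the background-corrected signal relative to the 75th percentile of the gene probes of the same array, which stood at a signal of 434 in the primary and 446 in the self-renewing macrophages. A probe counts as detected where the scanner software marked it as well above background, which began at a signal of 11.8 on the primary and 13.2 on the self-renewing array. For a gene detected on 1 array alone, the difference is a bound. Its bright level was set against the lowest detected level of the other array, or against the dim level of the probe itself where that was higher. The ± after a signal is the error that the software estimates for the spot, and it holds no spread between cultures. With 1 array per cell type there are no replicates, no test was made, and differences are given by size alone. Because the RNA came from whole cultures, fewer cells of a type and less RNA per cell cannot be told apart.

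Both arrays had the RNA of macrophages. All 10 macrophage markers were detected on both, among them Csf1r, the M-CSF receptor (0.39 log2 higher in the self-renewing macrophages), Adgre1, a surface protein typical of macrophages (0.52), and Spi1, which encodes PU.1 (0.23). The list did not move as one. In it 1 gene was at least 2-fold higher, Mertk at 2.23 log2, and 1 at least 2-fold lower, Fcgr1 at -1.76. One disagreement with the labels touches every difference. The primary array detected 0 of 6 Y-linked genes and the self-renewing array 4 of 6. Xist, the RNA that coats the inactive X chromosome, was detected on the primary array alone, while both samples are labelled male. The sex of the cells, the donor animals and the cell type therefore cannot be told apart for any of the 10 genes. Of all 15516 named genes detected on at least 1 array, 14003 were detected on both, and the median difference was -0.02 log2.

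The plot of levels by probe shows how the 10 genes divided.

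**Figure D1:**
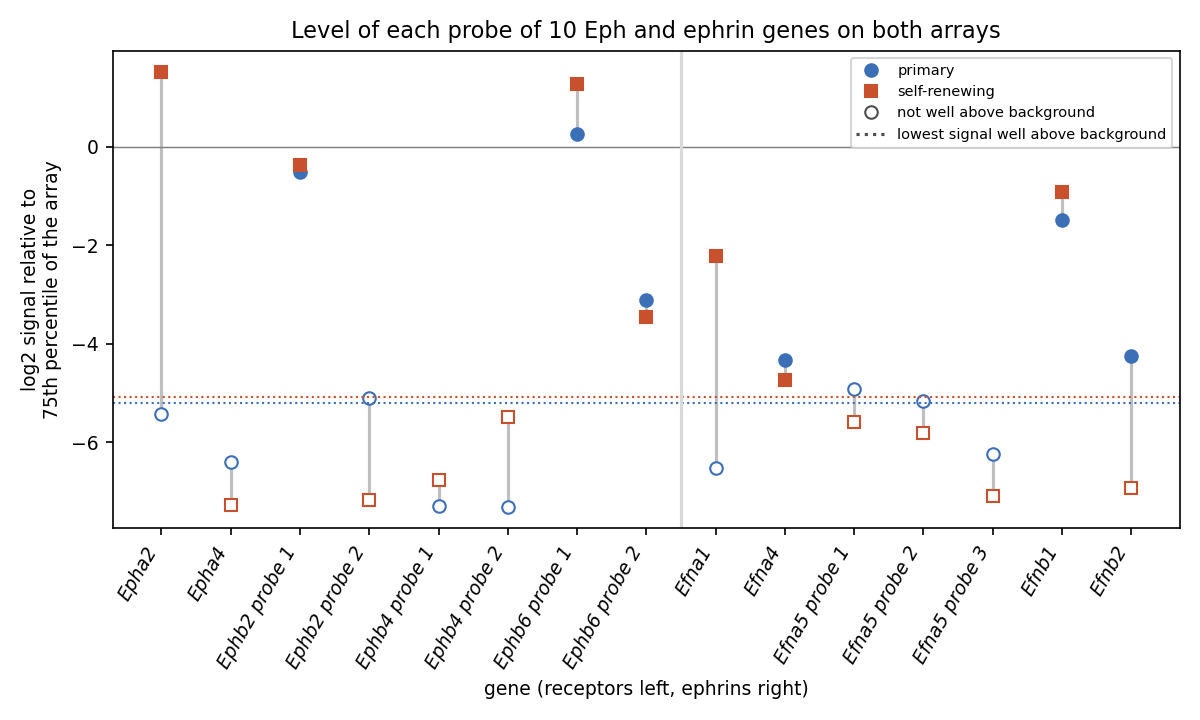
Level of each of the 15 probes of the 10 genes on the 2 arrays, as log2 of the signal relative to the 75th percentile of the array (y axis). Circles are the primary and squares the self-renewing macrophages, open symbols were not well above background, and the dotted lines are the lowest detected level of each array. Epha2 lies at -5.42 with an open circle and at 1.51 with a filled square, the widest gap of the 15 probes. A probe can lie above the dotted line and still not be marked as detected, as for the first Efna5 probe on the primary array.

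EphA2 is a receptor best known from epithelia, endothelium and tumours, where it takes part in adhesion and cell movement. Its single probe (A_52_P518997) gave a signal of 10.1 ± 2.72 in the primary macrophages, which was not well above background, and 1274 ± 127 in the self-renewing macrophages. The levels were -5.42 and 1.51 log2, so the same probe passed from under the lowest detected level of one array to above the 75th percentile of the other. The bound was 6.71 log2, at least 105-fold, where the measured difference was 6.93 log2. Among the 331 genes detected on the self-renewing array alone, this was the 2nd largest bound. The gene with a larger bound was the Y-linked Eif2s3y, at 7.30 log2, and the next smaller ones were Ceacam10 at 4.90, Pcdhb16 at 4.81 and Tjp1, which encodes a tight junction protein, at 4.58. With normexp background correction, which adds an offset to dim and bright spots alike, the Epha2 difference was 4.20 log2. By a looser flag of the software, which marks a signal as positive and significant against background, Epha2 and Efna1 were both detected on each array, and the Epha2 difference was the measured one.

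Cell types other than macrophages are known to carry EphA2, so their markers were read beside it. Of 10 epithelial markers, 4 were detected in the primary and 3 in the self-renewing macrophages, and their summed signal was 0.745 and 0.694 times the 75th percentile. The defining epithelial genes Epcam and Cdh1 were detected on neither array. Of 10 endothelial markers, 6 and 4 were detected, with summed signals of 8.69 and 6.62. Pecam1, which macrophages also carry, differed by 0.36 log2, whereas Cdh5, the cadherin of endothelium, was detected on the primary array alone, Egfl7 differed by -2.27 log2, and Vwf, the endothelial marker with the highest level, by -0.30 log2. Stromal markers were detected in 4 and 2 of 10 cases, with summed signals of 51.9 and 47.1, and Col1a1 was on neither array. The highest levels of these lists were those of Cldn7 (epithelial), which differed by 0.09 log2, and Acta2 (stromal), by -0.14 log2. Most of the stromal sum was that of Acta2 and most of the endothelial sum that of Vwf. Col1a2, a collagen gene of stromal cells, had signals of 52.9 and 88.1 and was 0.69 log2 higher on the self-renewing array. The part of these cells in the Epha2 signal was not tested.

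Other marker lists had lower summed signals on the self-renewing array. Of 10 neutrophil markers, 9 were detected in the primary and 5 in the self-renewing macrophages, with summed signals of 107 and 6.60, and of 10 megakaryocyte markers 10 and 6, with 263 and 60.4. Markers of T cells were detected in 8 and 6 of 10 cases (8.76 and 8.21), of B cells in 7 and 4 (3.51 and 1.81), of red cell precursors in 6 and 5 of 9 on the array (5.87 and 2.12), of osteoclasts in 9 and 9 of 10 (22.9 and 11.4), and of dendritic cells in 8 and 5 of 10 (45.5 and 19.5). The highest levels in these lists were those of S100a9 (neutrophils), with a bound of -10.96 log2, Pf4 (megakaryocytes) at -2.24, Cd4 at -0.06, Cd79b (B cells) with a bound of -5.77, Tfrc at -1.41, Dcstamp (osteoclasts) at -6.38 and Irf8 at -0.07. Cd3e of T cells differed by -0.05 log2 and Cd79a of B cells by 0.41, and Itga2b of megakaryocytes had a bound of -0.92. A single gene does not stand for its list. Osteoclast markers ranged from -6.56 to 0.85 log2, with 4 at least 2-fold lower and 0 higher. Dendritic cell markers ranged from -4.15 to 0.62 log2, also with 4 at least 2-fold lower and 0 higher. B cell markers ranged from -5.77, the bound of Cd79b, to 0.41 log2. Their median was -0.03 log2, with 2 at least 2-fold lower and 0 higher. The part of these cells in the signals of the 10 genes was not tested.

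Ephrin-A1 is the ligand with which EphA2 is most often studied, and it is known for its induction in endothelium by inflammatory cytokines. The Efna1 probe (A_55_P2031167) gave 4.71 ± 2.92 in the primary macrophages, not well above background, and 96.6 ± 10.2 in the self-renewing macrophages, at levels of -6.53 and -2.21 log2. Its bound was 2.99 log2, at least 7.95-fold, the 34th largest of the 331 bounds. With normexp the difference was 1.10 log2, and without a floor for dim signals it was 4.32. Epha2 and Efna1 were thus the 2 genes of 10 detected on the self-renewing array alone, a class that held 2.13% of all detected genes. The large Epha2 signal was known when the 10 genes were chosen.

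Chromosome neighbours of Epha2 and Efna1 were read to see how far the differences reached along the chromosome. Only genes detected on at least 1 array were counted as neighbours, and undetected genes between them were passed over. The 10 detected genes nearest to Epha2, 5 on each side, ranged from -0.85 to 1.14 log2 with a median of 0.11. Of these, 1 was at least 2-fold higher, B330016D10Rik with a bound of 1.14, and 0 were lower. The 10 detected genes nearest to Efna1 ranged from -1.03 to 0.68 with a median of -0.07, and 1 of them, Trim46 at -1.03, was at least 2-fold lower. Efna1 has a pair of family members among these neighbours, Efna3 with a difference of -0.11 and Efna4 with -0.39 log2, and neither shared the pattern of Efna1.

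EphB6 is a receptor without kinase activity that signals through the receptors it pairs with. Its brighter probe (A_55_P1980883) gave 522 ± 52.2 in the primary and 1081 ± 108 in the self-renewing macrophages, at levels of 0.27 and 1.28 log2. This was a difference of 1.01 ± 0.20 log2, or 2.02-fold, close to the 2-fold threshold. Its dimmer probe (A_55_P2108271) gave 50.3 ± 5.81 and 40.5 ± 5.22, a difference of -0.35 ± 0.25 log2. The probes for Ephb6 did not share a direction, and the mean over both was 0.33 log2, so the call of 2-fold for this gene rests on the brighter probe.

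EphB2 is a receptor with kinase activity that takes ephrin-B ligands and also ephrin-A5. Its brighter probe gave 305 ± 30.6 in the primary and 344 ± 34.5 in the self-renewing macrophages, at levels of -0.51 and -0.38 log2. The difference of 0.13 ± 0.20 log2 was smaller than the estimated error. A second Ephb2 probe gave 12.5 ± 2.99 and 3.10 ± 3.12 and was detected on neither array.

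EphA4, which takes ephrins of both classes, and EphB4, the receptor of ephrin-B2 known from veins, were detected on neither array. The Epha4 probe gave 5.09 ± 2.64 and 2.88 ± 2.89. The Ephb4 probes gave 2.73 ± 2.75 and 9.97 ± 3.23 for one, and 2.75 ± 2.77 and 4.12 ± 3.14 for the other. None of these signals reached the lowest detected signal of its array, so a difference below that signal would not have been seen. By the looser flag, Epha4 was detected on the primary array alone and Ephb4 on the self-renewing array alone.

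Ephrin-B1 is a membrane-spanning ligand encoded on the X chromosome. The Efnb1 probe gave 156 ± 15.8 in the primary and 236 ± 23.8 in the self-renewing macrophages, at levels of -1.48 and -0.92 log2. The difference of 0.56 ± 0.21 log2 was larger than its estimated error and than the spread between probes of 1 gene, 0.33 log2 as root mean square over 5077 genes, and it was under 2-fold. Neither the error nor that spread holds variation between cultures. Among all 15516 detected genes this rise ranked 1799th. As an X-linked gene, Efnb1 is read beside the signal of Xist, which was detected on the primary array alone. The part of the X chromosome in the Efnb1 difference was not tested.

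Ephrin-B2 is the arterial ligand of EphB4. Its probe gave 22.8 ± 3.57 in the primary macrophages and 3.64 ± 3.12 on the self-renewing array, where it was not detected. The bound was -0.83 log2, a signal at least 1.78-fold lower on the self-renewing array by the main processing. The measured difference was -2.69 log2, and with normexp it was smaller than the bound, at -0.35 log2. Efnb2 was the 1 gene of 10 detected on the primary array alone, a class that held 7.62% of all detected genes. The bound was set against the lowest detected signal of the self-renewing array, 13.2, and its signal of 22.8 lay not far above that.

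Ephrin-A4 and ephrin-A5 are lipid-anchored ligands of EphA receptors. Efna4 gave 21.4 ± 3.38 in the primary and 16.8 ± 3.33 in the self-renewing macrophages, a difference of -0.39 ± 0.36 log2 near the floor of detection. The 3 probes for Efna5 gave 14.2 and 9.24, 12.1 and 7.92, and 5.71 and 3.28, and were detected on neither array. All 3 were dimmer in the self-renewing macrophages, but as undetected signals they carry no order.

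In all, 7 of the 10 genes were detected on at least 1 array. Higher by at least 2-fold on the self-renewing array were 3 of them, Epha2, Efna1 and Ephb6, where 4.76% of all 15516 detected genes were so (739 genes). At least 2-fold lower were 0, where 8.38% of all genes were so (1300 genes), and the other 4 lay within 2-fold. The genes were chosen with the large Epha2 signal known, so the share of all genes is no test of this count. Epha2 and Efna1 were detected on the self-renewing array alone. Among genes detected on both arrays, 1 of the 10 was at least 2-fold higher, Ephb6 by its brighter probe. With the authors' own scaling, which moves all probes by 0.19 log2, 49.2% of the genes called in either direction were higher in place of 36.2%, and the direction of none of the 7 genes turned. The median over the 4 detected ephrins among the 10 was 0.09 log2, and that over the 3 detected receptors is the value of the brighter Ephb6 probe and is not read further.

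**Figure D2:**
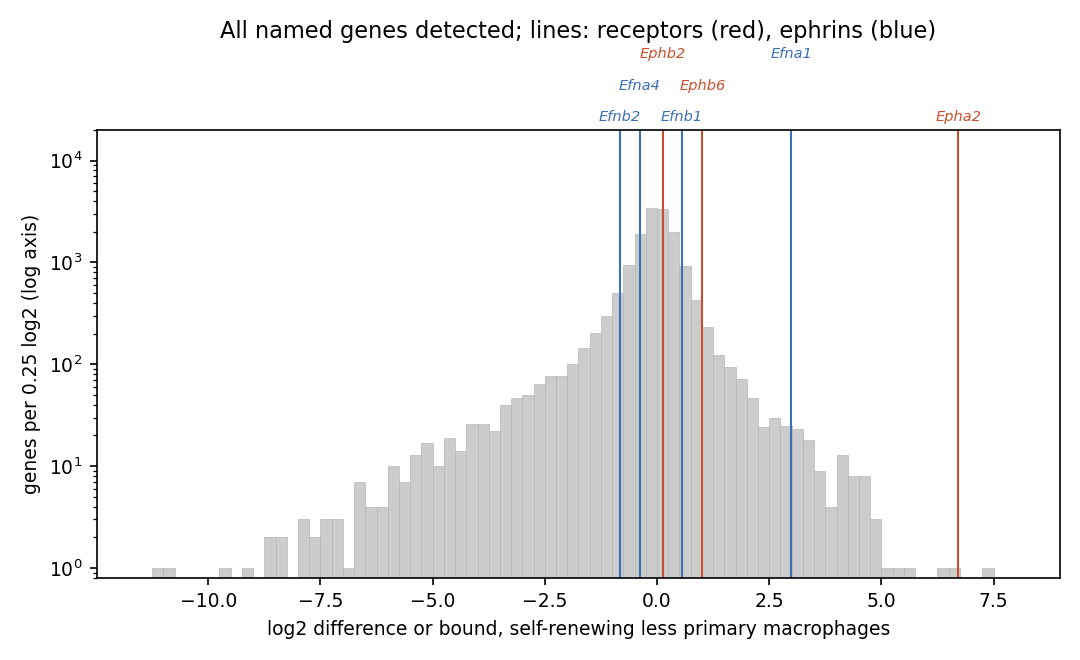
Number of genes (y axis, log scale) in steps of 0.25 log2 of the difference or bound between self-renewing and primary macrophages (x axis), for all 15516 named genes detected on at least 1 array. Vertical lines mark the 7 detected genes of the 10, receptors in red and ephrins in blue. Epha2 at 6.71 and Efna1 at 2.99 lie to the right of most genes, and the other 5 lie between -0.83 and 1.01.

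Of the other 12 Eph receptors and ephrins on the array, 6 were detected on at least 1 array, 1 was at least 2-fold higher and 0 were at least 2-fold lower. This gene was Epha1, a receptor known from epithelia, which gave 19.4 ± 3.35 and 48.6 ± 5.73, a difference of 1.28 ± 0.30 log2. Ephb3 gave 26099 ± 2610 and 31939 ± 3194 by its single probe and differed by 0.25 ± 0.20 log2. Efna2 was 0.81 ± 0.21 log2 higher, Epha10, a receptor without kinase activity, differed by 0.16 ± 0.26 and Efna3 by -0.11 ± 0.20, each by 1 detected probe. Efnb3 was detected on the primary array alone, with 21.6 ± 3.60 against 8.15 ± 3.38 and a bound of -0.75 log2, as Efnb2 was. Epha3, Epha5, Epha6, Epha7, Epha8 and Ephb1, most of them known from the nervous system, were detected on neither array.

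**Figure D3:**
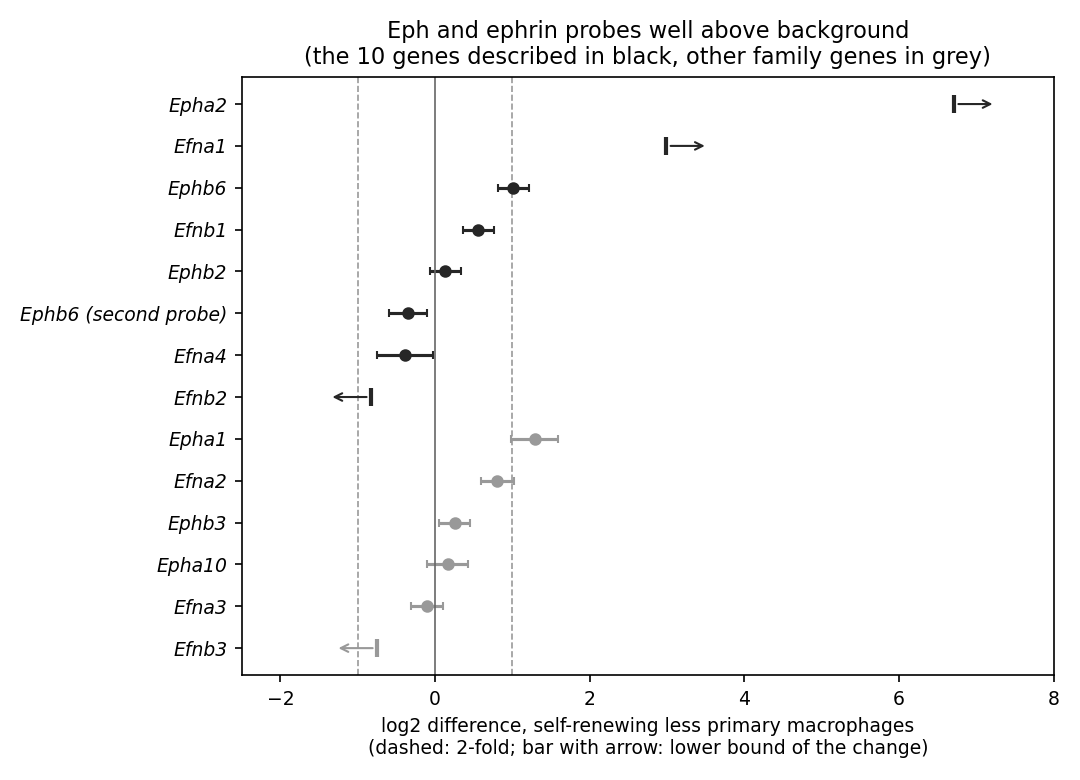
Log2 difference between self-renewing and primary macrophages (x axis) of every Eph or ephrin probe detected on at least 1 array. Points with bars are probes detected on both arrays with the estimated error of the spots, and ticks with arrows are bounds of probes detected on 1 array. Epha2 and Efna1 lie beyond 2-fold to the right as bounds, Ephb6 has probes on both sides of 0, and Efnb2 and Efnb3 have bounds to the left.

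Since receptor and ligand meet where neighbouring cells of a culture touch, each receptor was paired with its ligands on the same array. Pairs followed the 2 classes, with the known crossings of EphA4 to ephrin-B2 and -B3 and of EphB2 to ephrin-A5, and EphB4 was paired with ephrin-B2 alone. These are RNA signals. The arrays measure neither protein nor binding. The study reported Eph2 as high in the self-renewing macrophages in its microarray analysis, and also by flow cytometry, for which it lists an antibody to EphA2. The flow cytometry was not analysed here.

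Epha2 was undetected on one array and detected on the other, with ligands detected on both. In the primary macrophages 3 of its 5 ligands were detected, Efna2, Efna3 and Efna4, without the receptor. In the self-renewing macrophages the receptor was detected with 4 of 5, the same ones and Efna1. Efna5 was the ligand missing on both arrays.

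Ephb2 and Ephb6, detected on both arrays, had fewer detected ligands on the self-renewing array. Ephb6 was detected with 3 of the 3 ligands paired with it by class in the primary macrophages, Efnb1, Efnb2 and Efnb3. In the self-renewing macrophages it was detected with 1, Efnb1. Ephb2 had the same 3 of its 4 ligands and then the same 1, since Efna5 was on neither array. Both ligands missing there, Efnb2 and Efnb3, were dim on the primary array, at signals of 22.8 and 21.6, and their bounds were under 2-fold.

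Epha4 and Ephb4 had detected ligands without a detected receptor. For Epha4, 5 of 7 ligands were detected in the primary and 4 of 7 in the self-renewing macrophages. The single ligand paired with Ephb4, Efnb2, was detected on the primary array alone.

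Counted over the 10 genes alone, 13 pairs are possible. Both partners were detected for 4 pairs in the primary macrophages, Ephb2 and Ephb6 each with Efnb1 and Efnb2. Both were detected for 4 pairs in the self-renewing macrophages, Epha2 with Efna1 and Efna4, and Ephb2 and Ephb6 each with Efnb1. The number of receptors with a detected ligand among the 10 was 2 in the primary and 3 in the self-renewing macrophages, which is every receptor detected. By the looser flag this difference was lost, with 4 such receptors on each array. Over the whole family, 15 of 61 pairs had both partners on each array, with 5 and 6 of 14 receptors and 6 and 5 of 8 ephrins detected.

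**Figure D4:**
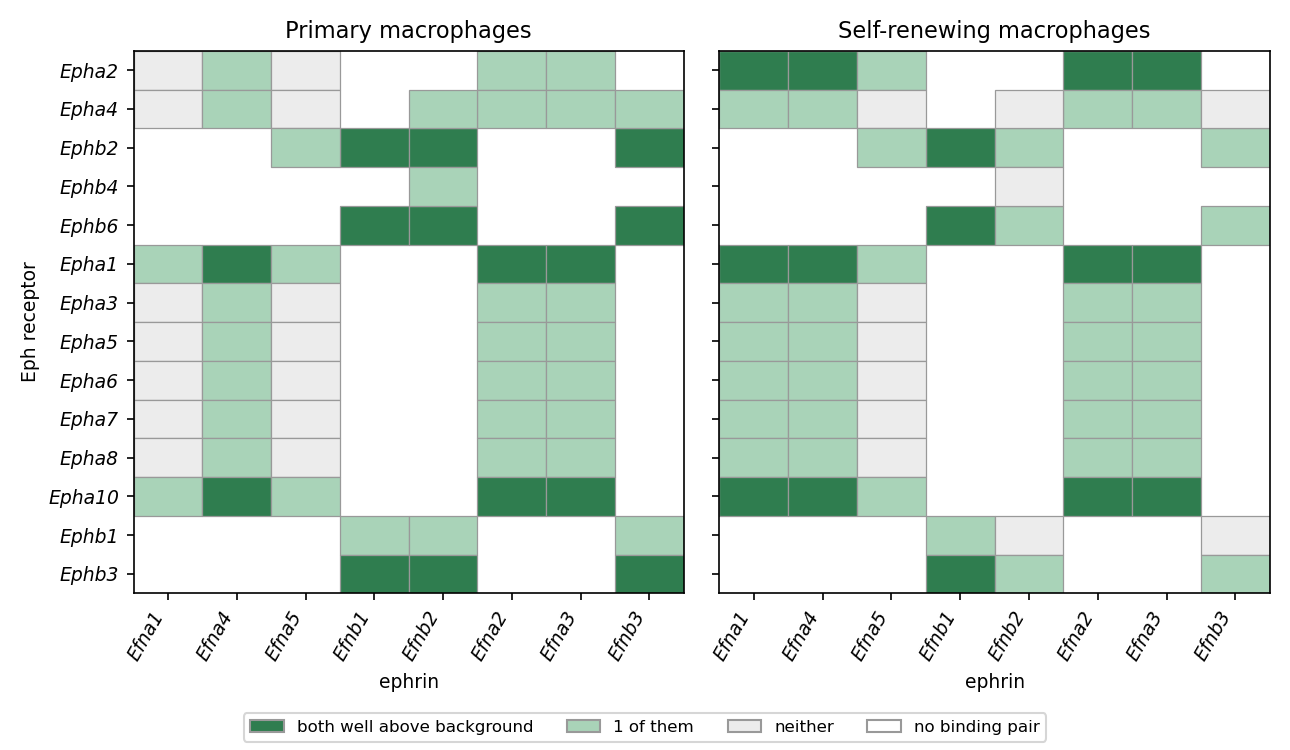
Binding pairs of Eph receptors (y axis) and ephrins (x axis) on each array. Dark green squares have both partners well above background, light green squares 1 of them, grey squares neither, and white fields are no binding pair. The Epha2 line has 0 dark squares in the primary and 4 in the self-renewing macrophages. The lines of Ephb2, Ephb6 and Ephb3 pass from 3 dark squares to 1, and those of Epha1 and Epha10 from 3 to 4.

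Genes that act behind the receptors and ephrins were read next. Of 43 genes of forward signalling, 39 were detected, 2 were at least 2-fold higher and 2 lower, beside 4.76% and 8.38% of all detected genes, and the median difference was 0.02 log2, against -0.02 over all genes. The adaptor Nck1 was higher by 1.02 log2, with 1.12 at its second probe, and Sla, which encodes a Src-like adaptor, by 1.35, with 1.51 and 0.69 at its other probes. Bcar3, an adaptor of cell movement, was lower by 2.44 log2, and Ngef, which encodes the exchange factor ephexin that acts behind EphA receptors, was detected on the primary array alone, with a bound of -3.16 log2. Both lower genes had 1 probe each.

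Of the kinases, phosphatases and GTPases that Eph receptors use, 6 set as examples were detected on both arrays. Src, the kinase that takes part in signalling on both sides, differed by -0.56 log2 at its brighter probe and by 0.18 at its other, so its probes did not share a direction, and Lyn, its relative in blood cells, differed by 0.33. The phosphatase Ptpn11 differed by -0.11 log2, with 0.05 at its other probe, the phosphatase Acp1 by -0.30, with -0.29 at its other probe, and the GTPases Rhoa and Rac1 by 0.02 and -0.53. All of these lay within 2-fold.

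Of 17 genes of reverse signalling, 15 were detected, 0 were at least 2-fold higher and 0 lower, with a median of 0.02 log2. Among the 13 measured genes of a list of 14 for shedding and cleavage, 10 were detected, 0 were at least 2-fold different in either direction, and the median was 0.08 log2. Adam10, the protease that cuts ephrin-A ligands from the membrane, differed by 0.06 log2.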

How the data were processed

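Total RNA of 1 culture of each cell type was labelled with Cy3 and hybridised to 1 array each, on the same slide and in the same scan. The authors deposited the output of Agilent Feature Extraction 11.5.1.1, in which each spot has an intensity corrected for background and detrended within the array, an estimated error of that intensity, and flags, here treated as other values, for spots well above background. A further table that the authors deposited holds these intensities times a constant for each array (1.07 and 1.19), whose basis is not given in the sources used here.

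Controls and spots flagged as outliers (63 on each array) were dropped, which left 56598 gene probes, of which 34808 and 33095 were well above background in the primary and self-renewing macrophages, and 0 were saturated. Spots of a probe were averaged, and log2 intensity was taken relative to each array's 75th percentile. Accessions were named through a RefSeq table of GRCm38.p6, which matched 58.3% of the probes. A gene is represented by its brightest probe among those detected on at least 1 array. Between the 10 spots of repeated probes, the median SD was 0.043 log2 on the primary and 0.046 log2 on the self-renewing array, a technical error only. Genes named are the 10, the rest of the family, the 3 nearest bounds on each side of Epha2 (where there were as many), genes of the signalling lists at least 2-fold different, set examples of these lists (Src, Lyn, Ptpn11, Acp1, Rhoa, Rac1, Adam10), and the brightest and the defining markers of each cell type. A few were chosen after their values were seen: B330016D10Rik, Trim46, Col1a2, Egfl7, Mertk, Fcgr1, Eif2s3y and Xist.

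The 10 genes and the lists were chosen with earlier results of these data known, and the binding pairs come from general knowledge. The alternatives were normexp background correction (offset 50, on median spot and background intensity), quantile normalization, scaling on probes detected on both arrays, the authors' scaled values, other detection rules and the mean over probes, and, chosen after seeing the data, the second probe of a gene. Code was tested on simulated data. Tools were R 4.3.3 (limma 3.58.1) and Python 3.11.15 (pandas 2.3.3, numpy 2.4.6, matplotlib 3.10.9). Probe sequences and protein sequences were not used here. The result for 1 neighbouring gene is not reported here by itself.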

Additional observations from a re-analysis of the deposited data

How the results depend on the processing

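Epha2 stayed at least 2-fold higher under all 9 alternatives that gave it a value, between 4.20 log2 (normexp) and 6.93, and Efna1 likewise, between 1.10 and 4.32. With only genes detected on both arrays neither has a value. Ephb6 ranged from -0.35 to 1.20 and reached 2-fold under 5 of 10 alternatives, and its direction turned with the second probe (-0.35), an alternative chosen after seeing the data. Efnb1 ranged from 0.42 to 0.75, Ephb2 from 0.11 to 0.32, Efna4 from -0.41 to -0.07 and Efnb2 from -2.69 to -0.35. Of 58 alternative values of the genes other than Epha2, 22 repeated the reported value, since the choice could not act on the gene, 7 moved by more than the spread between probes and 1 reversed. Detection by a looser flag gave 9 of the 10 genes detected and 4 receptors with a detected ligand on each array. Epha2 and Efna1 were included on both. With this flag, as without a filter, 4 of the 10 were at least 2-fold higher in place of 3, and 1 was lower (Efnb2). The added higher gene was Ephb4, at a measured 1.83 log2 from signals of 2.73 and 9.97. Over all genes these settings gave 1192 higher and 2336 lower. Over all genes normexp gave 429 higher and 750 lower, and genes detected on both arrays 782 lower, with 1 of the 10 higher. The cause of these shifts was not tested. No paired analysis was possible because a single array stands for each of the cell types. The single array per cell type, the disagreement of Y-linked genes and Xist with the labels, and signals near background for Efna4, Efnb2 and Efnb3 limit what these values can carry.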
